A study of Mus musculus with 15 samples.

Results

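Lepr, the gene of the leptin receptor, was followed through 15 mouse livers together with Leprot, Leprotl1, Jak2, Ptpn1 and Sh2b1, whose products act on the receptor or signal beside it. These 6 genes, of 22180 measured, were taken by symbol, and each was read by 1 transcript cluster of the array that carries no other symbol. The set was selected on the log2 signals of Lepr in the 3 groups, which were already known, and the partners were added for their roles, so the differences of all 6 are given as a description with no test. The livers came from male mice carrying the human ApoE3L.CETP transgenes (the APOE*3-Leiden variant and cholesteryl ester transfer protein), which were 9 to 12 weeks old at the start. A high-fat, high-cholesterol diet (60% fat, 0.25% cholesterol) was given to every mouse for 6 weeks before surgery. The mice were then housed singly and killed 20 days after the operation. Roux-en-Y gastric bypass (RYGB), which joins a small stomach pouch to the jejunum, was done in 6 mice, and the other mice had sham surgery, with 4 of them matched to the RYGB mice in body weight (BWm) and 5 fed ad libitum (Sham AL). Each mouse's RNA was hybridised to its own GeneChip Mouse Gene 2.0 ST array, and all levels are log2 signals in which 1 unit is a doubling.

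Leptin is the hormone by which fat tissue reports its stores to the brain. Its receptor belongs to the class I cytokine receptors and has no enzyme of its own: JAK2, a tyrosine kinase bound to its tail, phosphorylates the receptor, STAT3 docks there and moves to the nucleus, and SOCS3 and the phosphatase PTP1B (from Ptpn1) end the signal. SH2B1 binds JAK2 and raises its activity. Alternative splicing of Lepr gives a long signalling form and several short forms, and the liver of mice is known to make mostly short ones. It is also known to release a soluble receptor into plasma, where it binds leptin. A transcript cluster summarises probes over the gene, so these arrays do not separate the forms. LEPROT and its relative LEPROTL1 are small membrane proteins that lower the amount of receptor at the cell surface.

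Lepr and Leprot lie beside each other on mouse chromosome 4 and on the same strand, with Leprot at chr4:101647783-101659364 and Lepr at chr4:101717137-101815352 in RefSeq (GRCm38.p6). They do not overlap in that annotation: 57.8 kb separate the end of Leprot from the start of Lepr, although each carries the other's name among its synonyms. Leprotl1 is on chromosome 8, Jak2 on 19, Ptpn1 on 2 and Sh2b1 on 7. RefSeq promoter windows, from 250 bases before to 50 after a start site, were found for 5 of the 6 genes (7 windows). The windows of Lepr, which has 2 listed start sites 499 bases apart, and of Leprot are shown because the genes are neighbours with separate start sites and differed in how they varied between groups. They are given 5′ to 3′ on the plus strand, with capitals marking every GC box (GGGCGG) and CCAAT box (CCAAT) on either strand.
Lepr, upstream start (chr4:101717157-101717456): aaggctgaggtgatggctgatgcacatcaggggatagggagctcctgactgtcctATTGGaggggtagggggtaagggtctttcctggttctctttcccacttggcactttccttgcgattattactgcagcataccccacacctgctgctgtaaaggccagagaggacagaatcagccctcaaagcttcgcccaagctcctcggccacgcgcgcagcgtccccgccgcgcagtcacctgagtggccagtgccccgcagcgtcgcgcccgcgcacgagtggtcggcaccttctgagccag
Lepr, downstream start (chr4:101717656-101717955): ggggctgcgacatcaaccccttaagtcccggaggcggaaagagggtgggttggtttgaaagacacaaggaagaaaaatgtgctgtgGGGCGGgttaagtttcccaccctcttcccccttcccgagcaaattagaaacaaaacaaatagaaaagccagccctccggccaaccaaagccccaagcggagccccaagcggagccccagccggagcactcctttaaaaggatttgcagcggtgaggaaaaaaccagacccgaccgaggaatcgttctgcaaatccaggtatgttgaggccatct
Leprot (chr4:101647533-101647832): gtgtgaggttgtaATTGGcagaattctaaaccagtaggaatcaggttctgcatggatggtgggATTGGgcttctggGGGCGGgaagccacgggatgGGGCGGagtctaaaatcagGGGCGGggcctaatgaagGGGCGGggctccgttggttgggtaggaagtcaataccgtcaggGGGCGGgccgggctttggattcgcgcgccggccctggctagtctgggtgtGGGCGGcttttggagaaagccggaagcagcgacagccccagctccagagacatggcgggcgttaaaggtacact

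The Leprot window held 6 GC boxes and 2 CCAAT boxes. The upstream Lepr window held 1 CCAAT box and the downstream one 1 GC box. Of all 32851 mouse promoter windows in the table, 35.7% hold a GC box and 37.4% a CCAAT box. None of the 7 windows of the genes studied held the STAT element TTCNNNGAA (8.3% of all windows), the cAMP response element TGACGTCA (1.79%), the forkhead element TGTTTAC (3.65%) or the TATA box TATAAA (13.6%), searched on both strands. This describes letters in these windows and says nothing of the factors that bind there. The windows of Lepr, Ptpn1 and Sh2b1 lie inside the genes as annotated. For these genes the sequence before the outermost annotated end was therefore not searched.

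The array medians lay between 3.89 and 4.02. Pairs of arrays correlated across genes at Pearson's r of 0.967 to 0.991, and 0 pairs were identical. Sham AL replicate 4 stood apart from its group by more than 1 log2 unit for 662 genes, where the 14 remaining arrays did so for 53 to 128 genes. Array means over 6 adrenal cortex markers were 2.82 to 2.97 in RYGB, 2.8 to 3.11 in BWm and 3 to 9.48 in Sham AL livers, and over 6 adipocyte and brown fat markers 3.71 to 4.06, 3.72 to 3.91 and 4.1 to 8.71 in the same order of groups. Sham AL replicate 4 had both highest means. That array was kept, and values without it are given for Lepr and for the calls on the 5 gene lists below that it ended (Stat3, Osmr and Lpin2). Hepatocyte markers averaged 12.08 to 12.35 over all arrays, so liver was present in each. They cannot show that a sample held liver alone. Sham AL replicate 4 had the means of 9.48 (adrenal cortex) and 8.71 (adipocyte and brown fat). Every measured marker on both of these lists was highest on that array, so RNA of such markers was present there beside that of liver.

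Lepr differed between the 3 groups of livers and was highest in BWm livers, intermediate in RYGB livers and lowest in Sham AL livers. In RYGB livers it measured between 5.36 and 6.66 with a median of 5.72. BWm livers had 6.67, 7.47, 7.26 and 6.63. Sham AL livers had 3.75, 4.36, 5.22, 4.23 and 4.68. All 6 RYGB and all 4 BWm livers thus lay above all 5 Sham AL livers, whereas RYGB and BWm livers overlapped at 1 point, RYGB replicate 4 at 6.66 against BWm replicate 4 at 6.63. Within the RYGB group, replicates 3 and 4 (6.59 and 6.66) lay next to the BWm livers and replicates 1, 2 and 6 (5.36, 5.52 and 5.46) next to the highest Sham AL liver, replicate 3.

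Group means of Lepr were 5.92 ± 0.58 in RYGB (SD, n = 6), 7.01 ± 0.42 in BWm (SD, n = 4) and 4.45 ± 0.55 in Sham AL (SD, n = 5). Lepr was thus 2.77-fold higher in RYGB than in Sham AL livers (log2 1.47 ± 0.27 SE, 95% interval 0.89 to 2.05). In BWm livers it was 5.89-fold higher than in Sham AL livers (log2 2.56 ± 0.3 SE, interval 1.92 to 3.2). Set against BWm, RYGB livers were 2.13-fold lower (log2 -1.09 ± 0.29 SE, interval -1.7 to -0.47). The intervals rest on few arrays and on values known when the gene was chosen. Without Sham AL replicate 4 the differences were 1.42 for RYGB against Sham AL and 2.51 for BWm against Sham AL.

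**Figure D1:**
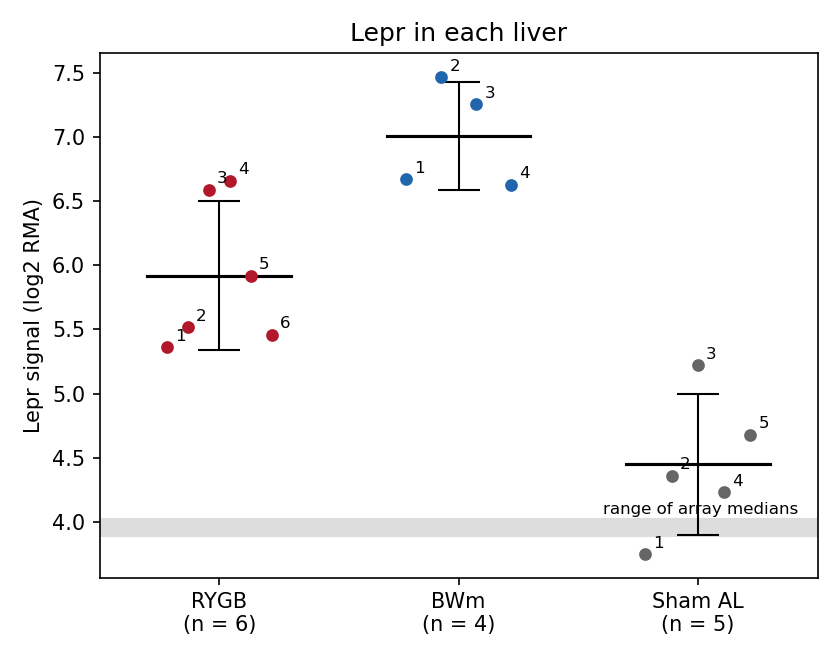
Lepr signal (log2 RMA) in each liver, by group, with replicate numbers beside the points; lines are group means and bars SD. RYGB livers span 5.36 to 6.66, BWm livers 6.63 to 7.47 and Sham AL livers 3.75 to 5.22, and the grey band is the range of array medians, 3.89 to 4.02.

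The lowest Lepr values were close to the array medians. RYGB livers lay 1.42 to 2.74 above their own array's median and BWm livers 2.66 to 3.52 above. Sham AL livers lay 0.31 to 1.2 above, except replicate 1, which differed from its array's median by -0.22. No measure of background came with the values, so the size of the folds against Sham AL is uncertain. The descriptions carry an animal number of unstated meaning, under 50 in 3 RYGB mice, 1 Sham AL mouse and 0 BWm mice. Among mice numbered under 50, Lepr averaged 5.82 in 3 RYGB livers and 3.75 in the 1 Sham AL liver. Among mice with higher numbers it averaged 6.01 in 3 RYGB, 7.01 in 4 BWm and 4.62 in 4 Sham AL livers, so the order of the groups was the same there.

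In a piece of liver, fewer cells of a type and less RNA per cell cannot be told apart. Lepr RNA is known from hepatocytes, and stellate and endothelial cells can also carry it. Per array, the mean over 6 hepatocyte markers lay between 12.08 and 12.31 in RYGB, 12.31 and 12.35 in BWm and 12.18 and 12.27 in Sham AL livers, with 1 of 6, Cps1, called in 1 comparison (higher in BWm than in Sham AL). Stellate cell markers averaged 7.62 to 7.91 in RYGB, 7.62 to 7.96 in BWm and 7.53 to 8.16 in Sham AL livers, and sinusoidal endothelial markers 7.25 to 7.87, 7.74 to 8 and 7.58 to 7.89 in the same order of groups. In these comparisons 0 of 8 stellate and 0 of 7 endothelial markers passed an adjusted p of 0.05 in limma, the threshold used throughout. At an unadjusted p under 0.05 the counts were 0 and 1 in RYGB against Sham AL, 2 and 3 in RYGB against BWm, and 1 and 1 in BWm against Sham AL. The part of cell types in the Lepr difference was not tested.

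The 2 proteins that hold the receptor back were read from genes whose groups overlapped. Leprot measured 7.05 to 7.51 (median 7.31) in RYGB livers, 7.35, 6.99, 6.7 and 7.06 in BWm livers and 7.07, 6.88, 7.27, 7.23 and 6.99 in Sham AL livers. RYGB livers were the highest on average, and the BWm livers spread over the whole range of the Sham AL livers and beyond it on either side. RYGB livers differed from Sham AL livers by log2 0.21 ± 0.12 (SE) and from BWm livers by 0.27 ± 0.13, and BWm livers from Sham AL livers by -0.06 ± 0.14. By group means Leprot did not have the order of its neighbour Lepr: BWm livers, the highest for Lepr, had the lowest Leprot mean (7.03 ± 0.27, SD, n = 4). The place of BWm below Sham AL livers was not settled. Its interval was -0.35 to 0.22, and the difference was 0.05 without BWm replicate 3.

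Leprotl1 measured 7.4 to 8.17 (median 7.8) in RYGB livers, 7.55, 7.85, 8.01 and 7.67 in BWm livers and 7.46, 7.55, 7.55, 7.76 and 7.72 in Sham AL livers. All 3 groups overlapped. The RYGB liver with the lowest Leprotl1, replicate 1, was also the one with the lowest Lepr, and replicate 4 had the highest of both. RYGB livers were log2 0.21 ± 0.13 above Sham AL livers and 0.05 ± 0.13 above BWm livers, and BWm livers 0.16 ± 0.14 above Sham AL livers.

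Jak2, the kinase that the receptor depends on, was the steadiest of the 6. It measured 6.5 to 6.83 (median 6.69) in RYGB livers, 6.75, 6.62, 6.86 and 6.53 in BWm livers and 6.65, 6.63, 6.71, 6.57 and 7.02 in Sham AL livers. Every RYGB and BWm value lay below the highest Sham AL liver, replicate 5, and the 3 means were within 0.03 of each other (6.68, 6.69 and 6.71). The 95% interval of the difference reached from -0.25 to 0.18 (RYGB against Sham AL), from -0.24 to 0.22 (RYGB against BWm) and from -0.26 to 0.22 (BWm against Sham AL).

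Sh2b1, the adaptor that activates JAK2, measured 5.95 to 6.32 (median 6.1) in RYGB livers, 6.11, 6.33, 6.18 and 6.28 in BWm livers and 6.18, 6.33, 6.03, 6.18 and 5.5 in Sham AL livers. Sham AL replicate 5 stood lowest of all 15 arrays for Sh2b1 and highest of all for Jak2. Differences were log2 0.05 ± 0.13 (RYGB against Sham AL), -0.13 ± 0.13 (RYGB against BWm) and 0.18 ± 0.14 (BWm against Sham AL), the last with an interval of -0.12 to 0.47. Without Sham AL replicate 5 the last became 0.04.

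Ptpn1, the phosphatase that removes phosphate from JAK2, measured 5.68 to 5.9 (median 5.81) in RYGB livers, 5.47, 5.8, 5.4 and 5.78 in BWm livers and 5.78, 5.73, 5.82, 5.52 and 5.46 in Sham AL livers. The RYGB livers lay close together in the upper part of the range, and BWm and Sham AL livers were each split between values near 5.8 and values near or below 5.5. Differences were log2 0.14 ± 0.1 (RYGB against Sham AL), 0.19 ± 0.11 (RYGB against BWm) and -0.05 ± 0.11 (BWm against Sham AL).

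**Figure D2:**
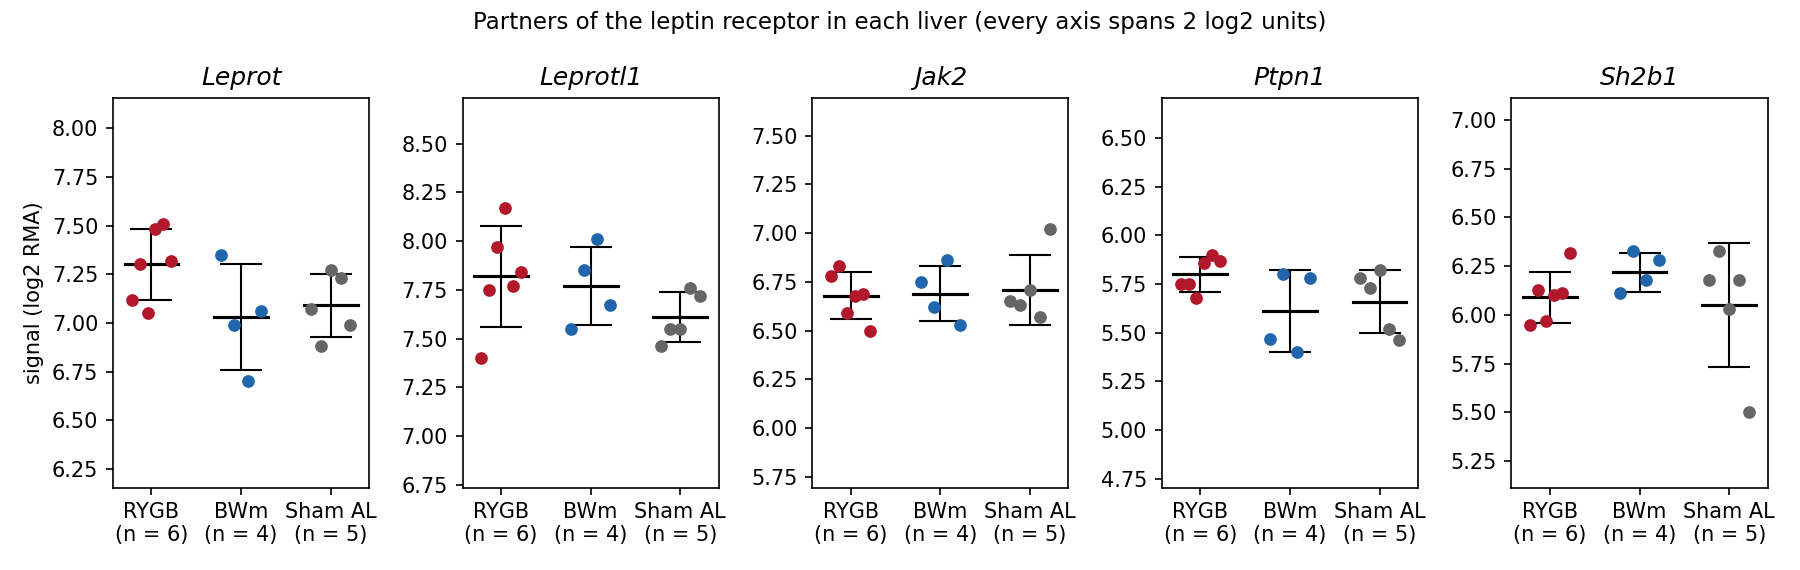
Signal (log2 RMA) of the 5 partners in each liver, with means and SD, every axis spanning 2 log2 units around the gene's mean. The groups overlap for each gene, and Sham AL replicate 5 is the high Jak2 point (7.02) and the low Sh2b1 point (5.5).

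**Figure D3:**
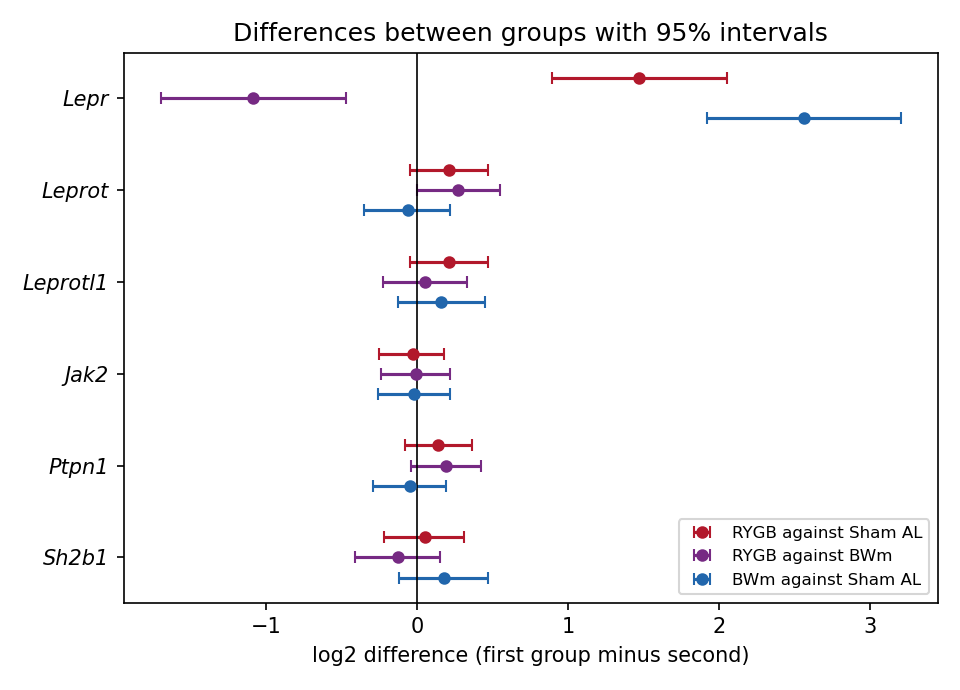
Log2 difference of each gene in the 3 comparisons (first group minus second), with 95% intervals from the fit over all arrays. Lepr lies at 1.47, -1.09 and 2.56, and the 15 differences of the partners lie between -0.13 and 0.27.

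By count, 1 of the 6 genes (Lepr) passed the threshold in each comparison. In RYGB against Sham AL, 1.38% of all genes passed it, 0.938% as higher, the direction of Lepr, and 0.442% as lower. In RYGB against BWm, 6.36% passed it, 2.34% as lower, the direction of Lepr, and 4.02% as higher. In BWm against Sham AL, 2.84% passed it, 1.53% as higher, the direction of Lepr, and 1.3% as lower. Nothing is read from this count, since Lepr was chosen with these values known. Its RYGB against BWm call was lost in 8 of 24 other fits, among them those without RYGB replicate 1, 2, 5 or 6 or BWm replicate 2 or 3 and that with a block for animal number. Groups did not overlap for 1 of 6 genes in RYGB against Sham AL (2.39% of all genes), 0 in RYGB against BWm (7.61%) and 1 in BWm against Sham AL (6.85%). The comparisons share arrays, so their values for a gene depend on each other.

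Further steps of leptin signalling were read from a list of 32 genes (the hormone, other JAK kinases, STAT factors, adaptors and inhibitors), of which 28 were measured. BWm livers had 4 of these higher than Sham AL livers and 0 lower. RYGB livers had 3 lower than BWm livers and 0 higher, and 1 higher than Sham AL livers and 0 lower. The median differences of the list were log2 0.02, 0.03 and 0.12 in these 3 comparisons, against -0.0147, 0.00124 and -0.0029 over all genes. The genes that moved were adaptors, a SOCS gene, a downstream factor and a STAT, and the other kinases, phosphatases and PI3K subunits on the list were not called in any comparison.

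Irs2, an adaptor of the insulin receptor that JAK2 can also use, measured 6.6 to 7.66 (median 7.22) in RYGB livers, 8.03 to 8.71 in BWm livers and 6.1 to 7.08 in Sham AL livers. It was higher in BWm than in Sham AL livers (log2 1.73 ± 0.22 SE, limma adjusted p = 0.00088) and lower in RYGB than in BWm livers (log2 -1.25 ± 0.21, limma adjusted p = 0.0012). Every BWm liver lay above all RYGB and Sham AL livers. RYGB against Sham AL gave log2 0.48 and was not called. Irs1, its relative, was higher in BWm than in Sham AL livers (log2 0.76 ± 0.13, limma adjusted p = 0.0036), with 6.82 to 7.23 in BWm against 6.09 to 6.45 in Sham AL livers.

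Foxo1, a transcription factor that insulin signalling keeps out of the nucleus, averaged 7.75 ± 0.18 in RYGB (SD, n = 6), 8.55 ± 0.22 in BWm (SD, n = 4) and 7.93 ± 0.13 in Sham AL (SD, n = 5). It was lower in RYGB than in BWm livers (log2 -0.81 ± 0.12, limma adjusted p = 0.00044) and higher in BWm than in Sham AL livers (log2 0.62 ± 0.12, limma adjusted p = 0.011, and 0.051 without BWm replicate 3). Socs2, an inhibitor that growth hormone induces through STAT5, had the order of Lepr, with means of 5.74 ± 0.63 in RYGB, 6.93 ± 0.55 in BWm and 4.87 ± 0.5 in Sham AL (SD, n = 6, 4 and 5). It was higher in BWm than in Sham AL livers (log2 2.05 ± 0.32, limma adjusted p = 0.0023) and lower in RYGB than in BWm livers (log2 -1.19 ± 0.31, limma adjusted p = 0.027). Its RYGB and Sham AL livers overlapped and that difference was not called (log2 0.87 ± 0.29, limma adjusted p = 0.18). The RYGB against BWm call ended without RYGB replicate 1, 5 or 6 or BWm replicate 2 or 3 (adjusted p up to 0.11).

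Stat3, the factor that carries the leptin signal to the nucleus, measured 9.25 to 9.6 (median 9.42) in RYGB livers, 9.25, 9.26, 9.23 and 9.41 in BWm livers and 8.94, 9.1, 9.06, 9.1 and 9.04 in Sham AL livers. All RYGB livers lay above all Sham AL livers, and the rise was small (log2 0.37 ± 0.09, limma adjusted p = 0.042). That call ended in 12 of 15 fits with 1 array left out and held without RYGB replicate 1, RYGB replicate 5 or BWm replicate 4. Adjusted p was 0.058 without Sham AL replicate 4 and at most 0.1. Socs3, the inhibitor that STAT3 induces and that shuts off the leptin receptor, averaged 5.83 ± 0.31 in RYGB, 5.61 ± 0.42 in BWm and 5.16 ± 0.21 in Sham AL (SD, n = 6, 4 and 5). It was not called, with log2 0.68 ± 0.17 for RYGB against Sham AL (limma adjusted p = 0.06). Ptpn2, a phosphatase related to PTP1B, differed by log2 0.25 ± 0.13 in RYGB against Sham AL (limma adjusted p = 0.46). Lep, the hormone itself, is made in fat and measured 2.69 to 3.66 in RYGB, 2.46 to 3.12 in BWm and 2.62 to 3.45 in the Sham AL livers other than replicate 4, which had 6.19.

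Liver genes that leptin is known to control were a list of 7. Scd1, the stearoyl-CoA desaturase that leptin represses, was lower in RYGB than in Sham AL livers (log2 -1.16 ± 0.14, limma adjusted p = 0.00049) and lower than in BWm livers (log2 -0.88 ± 0.15, limma adjusted p = 0.0013). Its levels were 10.57 to 11.49 in RYGB, 11.66 to 12.01 in BWm and 11.99 to 12.32 in Sham AL livers. BWm livers were not called for Scd1 against Sham AL livers (log2 -0.28 ± 0.15, limma adjusted p = 0.42). The part of leptin or of Lepr in the Scd1 values was not tested.

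Igfbp2, a plasma carrier of IGF that leptin induces in liver, was higher in RYGB than in Sham AL livers (log2 1.1 ± 0.18, limma adjusted p = 0.0036) and higher in BWm than in Sham AL livers (log2 1.32 ± 0.2, limma adjusted p = 0.0018). It measured 9.19 to 10.23 in RYGB and 9.8 to 10.37 in BWm livers, all above the 8.46 to 8.97 of Sham AL livers. RYGB and BWm livers overlapped (log2 -0.23 ± 0.19, limma adjusted p = 0.61). Fasn, the fatty acid synthase, was lower in BWm than in Sham AL livers (log2 -1.79 ± 0.31, limma adjusted p = 0.0037). The remaining 4 genes, Srebf1, Acaca, Acly and Elovl6, were not called in any of the 3 comparisons, although the list's count in BWm against Sham AL was 4 instead of 2 without BWm replicate 4. The list's median difference from Sham AL was log2 -0.51 in RYGB livers and -0.65 in BWm livers, and RYGB livers differed from BWm livers by a median of 0.2.

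Acute phase genes that STAT3 drives in hepatocytes, mainly in answer to IL-6, gave 4 of 19 higher and 0 lower in RYGB against BWm (median log2 0.31). Against Sham AL, 0 of 19 were called in RYGB livers and 0 of 19 in BWm livers by limma, with 11 and 5 at an unadjusted p under 0.05. With 1 array left out, these counts reached 3 (without RYGB replicate 1) and 1 (without Sham AL replicate 5). The 4 were Lcn2, which binds iron carriers of bacteria (log2 1.52 ± 0.34, limma adjusted p = 0.01), Orm2, a plasma glycoprotein (1.62 ± 0.42, adjusted p = 0.025), Il1rn, the antagonist of the IL-1 receptor (0.85 ± 0.17, adjusted p = 0.0047), and Timp1, an inhibitor of matrix proteases (0.63 ± 0.16, adjusted p = 0.024). Timp1 averaged 4.13 ± 0.19 in RYGB (SD, n = 6) and 3.5 ± 0.06 in BWm (SD, n = 4), and the BWm mean lies under the lowest array median of 3.89. The Orm2 call ended when RYGB replicate 4, 5 or 6 or BWm replicate 3 or 4 was left out (adjusted p up to 0.12), and the Timp1 call when RYGB replicate 5 or 6 or any BWm replicate was (up to 0.065).

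Of 6 neutrophil markers, 0 were called in RYGB against BWm by limma, with 2 at an unadjusted p under 0.05. Their array means were 2.73 to 3.63 in RYGB, 2.52 to 3 in BWm and 2.5 to 2.93 in Sham AL livers, below every array median for all 3 groups. S100a8, a calcium-binding protein abundant in neutrophils, measured 2.44, 2.52, 2.57, 3.67, 4.38 and 3.99 in RYGB replicates 1 to 6, against 2.07 to 2.39 in BWm livers (log2 1 ± 0.31, limma adjusted p = 0.064). RYGB replicates 4, 5 and 6 were the high ones, and Ngp, a neutrophil granule protein, was also highest there (4.27, 4.51 and 4.29). These are the 3 RYGB mice with animal numbers over 50, and replicates 1 to 3 are those under 50. The part of whatever that number stands for was not tested. Ly6g, a defining surface marker of neutrophils, measured 2.01 to 2.57 in RYGB and 2.25 to 2.71 in BWm livers. Lcn2 and Il1rn are known from neutrophils as well, and the part of these cells in the difference was not tested.

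Receptors related to the leptin receptor were a list of 19 with 16 measured. Il6ra, which binds IL-6, had the order of Lepr, with 8.6 to 9.47 in RYGB, 9.52 to 9.75 in BWm and 8.25 to 8.9 in Sham AL livers. It was higher in BWm than in Sham AL livers (log2 1.09 ± 0.17, limma adjusted p = 0.0023) and lower in RYGB than in BWm livers (log2 -0.68 ± 0.17, limma adjusted p = 0.018). Its RYGB and Sham AL livers overlapped and that difference was not called (log2 0.41 ± 0.16, limma adjusted p = 0.24). Cntfr, the receptor of ciliary neurotrophic factor, was lower in RYGB than in BWm livers (log2 -1.09 ± 0.27, limma adjusted p = 0.02). These RYGB against BWm calls ended without BWm replicate 2 or 3 (adjusted p up to 0.063 for Il6ra and 0.078 for Cntfr). Osmr, the receptor of oncostatin M, was higher in RYGB than in Sham AL livers (log2 0.62 ± 0.15, limma adjusted p = 0.046), a call that ended in 10 of 15 fits with 1 array left out, among them that without Sham AL replicate 4 (adjusted p = 0.06, at most 0.14). In all, 1 of 16 was higher in RYGB than in Sham AL, 2 were lower in RYGB than in BWm and 1 was higher in BWm than in Sham AL, with medians of log2 0.14, 0.05 and 0.05. Without Sham AL replicate 4, the last count was 2.

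The signal-sharing chain of the IL-6 family, Il6st, was not called (log2 0.24 ± 0.1 for RYGB against Sham AL, limma adjusted p = 0.29, and 0.34 ± 0.11 for BWm against Sham AL, limma adjusted p = 0.11). Ghr, the growth hormone receptor, also works through JAK2. It measured 7.33 to 8.43 in RYGB, 8.13 to 8.46 in BWm and 8.01 to 8.5 in Sham AL livers, and RYGB against BWm gave log2 -0.58 ± 0.17 (limma adjusted p = 0.053).

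Genes that fasting induces in liver were followed because Lepr RNA in mouse liver is known to rise with fasting. Of 18 measured, 7 were higher and 0 lower in BWm than in Sham AL livers (median log2 0.58), while 8 were lower and 1 higher in RYGB than in BWm livers (median log2 -0.61). In RYGB against Sham AL, 2 were higher and 0 lower (median log2 -0.12). Of all genes, 1.53% were higher in BWm than in Sham AL livers and 0.938% higher in RYGB than in Sham AL livers. In RYGB against BWm, 2.34% of all genes were lower and 4.02% higher. The part of fasting or food intake in the Lepr difference was not tested. Igfbp1, which binds IGF in plasma, was higher in RYGB (log2 1.59 ± 0.27, limma adjusted p = 0.0043) and in BWm (log2 2.24 ± 0.3, limma adjusted p = 0.00091) than in Sham AL livers, and like Lepr it had its highest mean in BWm livers (9.83 ± 0.58, SD, n = 4) and an intermediate one in RYGB livers (9.18 ± 0.34, SD, n = 6).

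Acot1 shared that order of means, but its RYGB and Sham AL livers lay close together. Acot1, an acyl-CoA thioesterase, measured 5.61 to 6.48 in RYGB, 7.27 to 9.54 in BWm and 5.12 to 6.3 in Sham AL livers, so it was higher in BWm than in Sham AL livers (log2 2.44 ± 0.35, limma adjusted p = 0.0016) and lower in RYGB than in BWm livers (log2 -2.37 ± 0.34, limma adjusted p = 0.00034). Angptl4, an inhibitor of lipoprotein lipase, was also higher in BWm than in Sham AL and lower in RYGB than in BWm livers, with its lowest mean in RYGB livers (log2 0.93 ± 0.16, limma adjusted p = 0.0038, and -1.08 ± 0.16, limma adjusted p = 0.00034). Lpin2, a phosphatidate phosphatase, was lower in RYGB than in BWm livers (log2 -0.67 ± 0.14, limma adjusted p = 0.0047) and higher in BWm than in Sham AL livers (log2 0.57 ± 0.14, limma adjusted p = 0.033). The BWm against Sham AL call of Lpin2 ended in 7 of 15 fits with 1 array left out, those that dropped any of BWm replicates 1 to 3 or of Sham AL replicates 1 to 4 (at most 0.12, and 0.071 when Sham AL replicate 4 was dropped). Fgf21, a hormone of the fasted liver, was higher in RYGB than in Sham AL (log2 1.51 ± 0.23, limma adjusted p = 0.0022) and than in BWm livers (log2 1.36 ± 0.25, limma adjusted p = 0.0022).

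**Figure D4:**
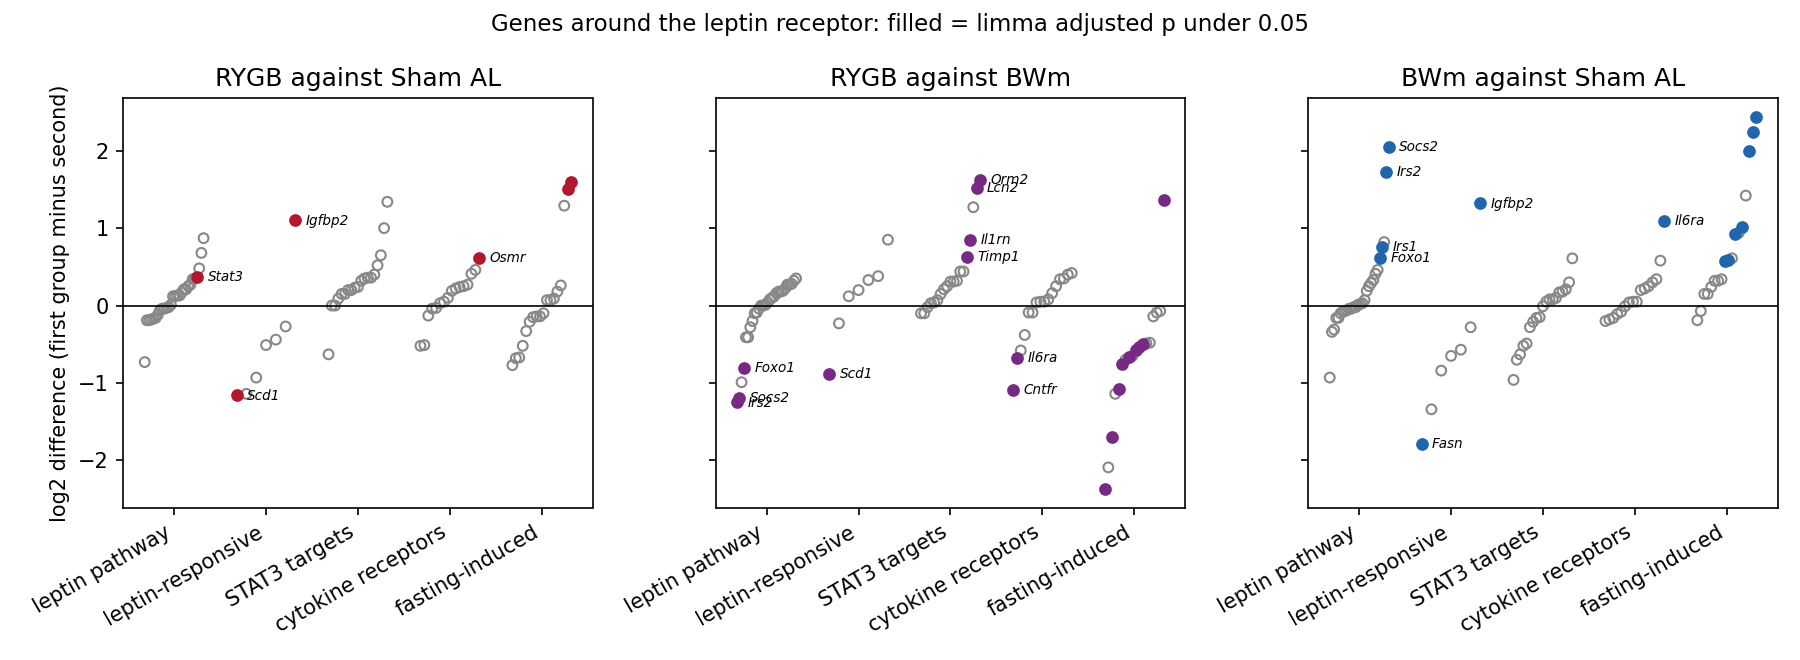
Log2 difference (first group minus second) of each gene on the 5 lists in the 3 comparisons; filled points passed a limma adjusted p of 0.05 and are named except on the fasting list. In BWm against Sham AL, 7 of 18 fasting-induced genes are filled above 0, and in RYGB against BWm 8 are filled below 0 and 1 above.

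The genes whose pattern over the 15 arrays was most like that of Lepr, by Pearson's r among 17848 named genes, were Cyp3a13 (r = 0.92), Ptbp3 (0.908), Chka (0.901), Sppl3 (0.9), Irs1 (0.891), Cyp4a14 (0.891), Fam234b (0.889), Cyp39a1 (0.878), Nedd4l (0.874) and Bmpr1a (0.874). Each had its highest mean in BWm livers and its lowest in Sham AL livers. They were picked for this likeness, so their group differences are no further result. Their size varied: Cyp39a1, which hydroxylates an oxysterol on the way to bile acids, averaged 7.88 ± 0.54 in RYGB, 8.23 ± 0.73 in BWm and 5.93 ± 0.42 in Sham AL (SD, n = 6, 4 and 5), whereas Ptbp3, an RNA-binding protein, averaged 8.81 ± 0.13, 9.02 ± 0.04 and 8.57 ± 0.03 in the same order of groups. Cyp4a14, a fatty acid hydroxylase, averaged 10.8 ± 0.71, 11.5 ± 0.63 and 9.52 ± 0.66.

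Of these 10 genes, 7 were among the top 10 without Sham AL replicate 4 and 6 by Spearman's rho. When each group's mean was first subtracted, 0 of the 10 stayed in the top 10, and r was between 0.398 (Fam234b) and 0.774 (Chka, a choline kinase). The likeness over all arrays therefore rests in part on the group means, which arrays of a group share. After subtraction Chka ranked 31 and Nedd4l 66 (r = 0.731) of 17848 genes, and the others ranked between 177 and 2036. For the partners, the closest genes were C1qa for Leprot (r = 0.907), Dnajc18 for Leprotl1 (0.88), Kdm5a for Jak2 (0.879), Zyx for Ptpn1 (0.896) and Irf2bp1 for Sh2b1 (0.874). By Spearman's rho the first 4 ranked between 2 and 4 for their gene, whereas Irf2bp1 ranked 254 (rho = 0.6), and both it and Sh2b1 were lowest in Sham AL replicate 5 (4.89 and 5.5). After subtraction of group means, Pearson's r of these 5 pairs was between 0.853 and 0.928. C1qa encodes a complement chain made by macrophages, whose 7 markers averaged 7.61 to 8.05 in RYGB, 7.24 to 8.07 in BWm and 7.09 to 7.76 in Sham AL livers. In RYGB against Sham AL, limma called 1 of the 7 as higher, with 3 at an unadjusted p under 0.05 (median log2 0.48). In RYGB against BWm and in BWm against Sham AL 0 were called, with 2 and 1 at that unadjusted p (median log2 0.17 in both). The part of macrophages in the Leprot values was not tested.

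**Figure D5:**
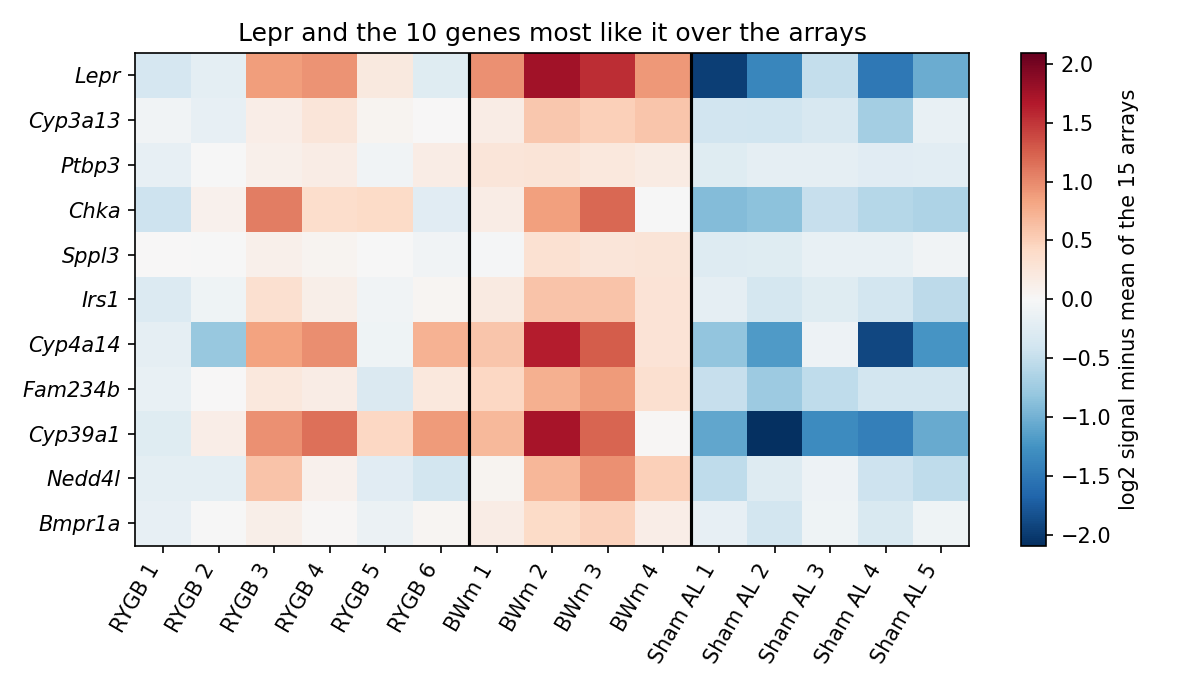
Signal of Lepr and the 10 genes most like it in each liver, as log2 signal minus the mean of the 15 arrays, with groups separated by lines. The first row shows Lepr highest in BWm replicates 2 and 3 (7.47 and 7.26) and lowest in Sham AL replicate 1 (3.75).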

How the data were processed

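Liver RNA of 15 mice was hybridised to 1 array per mouse. Per the series' design text and the submitters' processing notes, the authors ran Affymetrix Expression Console 1.4.1.46 and its RMA summary (robust multi-array average, which corrects background, normalizes by quantiles and takes log2). The deposited table holds log2 values of 41345 transcript clusters. The sources used here do not give its annotation version or genome build. Of the clusters, 23521 had 1 symbol, 1814 several and 16010 none; the last 2 kinds were left out, and for 1082 genes with several clusters the one with the highest mean was taken. The 6 genes had 1 cluster each. Promoters are RefSeq's (GRCm38.p6).

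Group differences are contrasts in 1 limma fit (3.58.1, R 4.3.3; lmFit, eBayes, no filter on level) over all arrays, with Benjamini-Hochberg adjustment over 22180 genes and a threshold of 0.05, two-sided. Python 3.11.15, pandas 2.3.3 and matplotlib 3.10.9 served tables and figures. The titles call the arrays biological replicates. The members, lists and tests were chosen with earlier results of these data known. Genes named are the 6 genes, those most like them (10 for Lepr and 3 for each other, of which the first is printed; leaving out Mup genes, predicted genes and the receptors of smell and pheromones), up to 4 called genes per list and comparison, and 8 fixed genes. Srebf1, Acaca, Acly and Elovl6 of the leptin list and the markers Cps1, S100a8, Ngp and Ly6g are named outside this rule, with their values known. The other markers on the fixed lists were summarised only. Tested on simulated data for RYGB against Sham AL (22180 genes, 200 changed), the fit called 68% of 1.5-fold, 91% of 2-fold and 100% of 4-fold changes with 10 false calls. The shares were 54%, 90% and 100% in a simulated RYGB against BWm comparison (3 false) and 56%, 86% and 100% in BWm against Sham AL (6 false). Noise was drawn for each gene alone, as normal values with its residual SD. The 1.5-fold and 4-fold changes were all up and the 2-fold changes all down. Correlated genes and an outlying array were not simulated, so error rates in the real data may differ. Livers with the same replicate number were not treated as pairs. Their deviations from group means correlated at -0.17 to 0.19. Livers with different numbers were not correlated for comparison, so pairing was not settled. Alternatives left out each array in turn, added a block (replicate or animal number), weighted the arrays, used a trended and robust prior, fitted the compared groups alone, averaged a gene's clusters, subtracted array medians, normalized by quantiles, kept genes above the median level, or used the methods' one-way test.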

Additional observations from a re-analysis of the deposited data

Results flagged for a closer look

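The groups of 60 genes were each searched for an array far from the others (Dixon's test at 95%). These were the 6 genes, those most like them, the called genes on the 5 lists and the 8 fixed genes. Of 180 groups, 12 had one, where chance gives about 1 in 20; none of the 18 groups of the 6 genes did. On the array of Sham AL replicate 4, Lep measured 6.19 (others 2.62 to 3.45) and Cntfr 7.5 (others 5.64 to 5.98). On that of Sham AL replicate 5, Rsl24d1 measured 7.08 (6.55 to 6.63) and Capn7 7.74 (7.43 to 7.49), both among the genes most like Jak2, which was also highest there. Tmem156 measured 2.69 in Sham AL replicate 2 (3.16 to 3.34). BWm replicate 1 had Cyp3a13 at 9.39 (9.74 to 9.82), Ppard at 6.09 (6.38 to 6.4) and Ppara at 9 (9.13 to 9.15), and BWm replicate 2 had Ghr at 8.13 (8.42 to 8.46). In RYGB livers, Irf2bp1 measured 5.66 in replicate 6 (5.3 to 5.42), Angptl4 8.23 in replicate 3 (8.7 to 8.97) and Pck1 11.25 in replicate 5 (11.61 to 11.8).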

How the results depend on the processing

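Under the alternatives the Lepr difference ranged from 1.47 to 1.6 (RYGB against Sham AL), -1.12 to -0.87 (RYGB against BWm) and 2.47 to 2.62 (BWm against Sham AL), and with 1 array left out from 1.3 to 1.66, -1.24 to -0.93 and 2.38 to 2.75. All 432 values of the 6 genes under these settings moved by less than 1 SD of the gene, and 0 called values changed sign. Some of these values could not move. A changed variance prior, a filter on level or fitting the compared groups alone leaves a gene's group means unchanged. So does dropping an array of the group not compared, or averaging the clusters of a gene that has 1. Lepr passed the threshold in 24 of 24, 16 of 24 and 24 of 24 fits, in that order, and 0 other members in any. Nothing is read from these counts either, since Lepr was chosen with its values known. Counts of called genes, given in the same order, were 306, 1411 and 629 in all and 1, 3 and 4 on the leptin pathway list. With 1 array left out they ranged from 144 to 398, 930 to 1544 and 284 to 646 in all, and 0 to 2, 2 to 5 and 3 to 5 on the list. A replicate block, although the main fit did not treat the numbers as pairs, gave 174, 903 and 325 genes and 0, 3 and 3 on the list. The methods' one-way test gave 54, 833 and 90 genes and 0, 2 and 1 on the list after Benjamini-Hochberg, and 370, 857 and 554 genes and 2, 4 and 4 on the list at an unadjusted p of 0.05 and 1.5-fold. Keeping genes above the median level gave 437, 1785 and 1011 genes, with 2, 6 and 5 on the list. In RYGB against Sham AL the list count was 2 with array medians subtracted, with the block for animal number or with the trended and robust prior, and 0 with quantile normalization, which gave 5 in RYGB against BWm. Among the related receptors, the block for animal number gave 6 called in RYGB against BWm and the replicate block 0, against 2. For fasting-induced genes (2, 9 and 7 called), the counts were 0 to 4, 3 to 11 and 0 to 8 under the alternatives, lowest with the methods' test after Benjamini-Hochberg (0, 3 and 0), and 2 to 3, 7 to 11 and 5 to 7 with 1 array left out. For acute phase targets (0, 4 and 0) they were 0 to 4, 1 to 5 and 0 to 2, and 0 to 3, 2 to 6 and 0 to 1. For genes that answer to leptin (2, 1 and 2) they were 1 to 4, 1 to 2 and 1 to 4, and 2 to 3, 1 to 2 and 2 to 4. For related receptors (1, 2 and 1) they were 0 to 2, 0 to 6 and 1 to 2, and 0 to 2, 0 to 3 and 1 to 2. The causes were not tested. The number of arrays and the unmeasured background limit precision.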
